A study of Homo sapiens with 6 samples.

Results

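The keratin genes KRT7, KRT8, KRT10, KRT15, KRT18, KRT19, KRT20, KRT23, KRT80 and KRT81 were followed in colorectal cancer stem cells after PSCA silencing. These 10 genes were taken by name, not by a threshold on measured values, from a table of 58735 genes. The cells were HCT116SCs, the CD44+CD326+ fraction of the human colorectal cancer line HCT116, grown without serum as tumor spheres with EGF, bFGF and B27. The NC group (n = 3 libraries, genotype given as WT) received negative control siRNA and the siPSCA group (n = 3 libraries, genotype given as PSCA knockdown) received PSCA siRNA, both by liposomal transfection with harvest after 48 h. All libraries therefore come from 1 cell line, and which of the PSCA siRNA sequences was used for sequencing is not given in the sources used here. Nothing states that the libraries of a group came from separate cultures, so p-values measure the spread between these libraries, which may be technical.

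Keratins build the intermediate filaments of epithelial cells. Each filament is assembled from pairs of an acidic type I keratin and a basic type II keratin, and an unpaired keratin protein is usually degraded. KRT8 (type II) with KRT18 (type I) is the basic pair of simple epithelia such as the intestinal lining, KRT19 (type I) joins KRT8 in ductal and glandular epithelia, and KRT20 (type I) marks differentiated intestinal cells and is used in pathology for colorectal origin. KRT7 (type II) is a simple epithelial keratin that colorectal tumors typically lack. KRT10 belongs to the suprabasal epidermis, KRT15 to basal cells of stratified epithelia and KRT81 to the hair cortex, while KRT23 and KRT80 are epithelial keratins that are less well characterized.

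The table gives FPKM, fragments scaled to gene length in kilobases and to a library total. Multiplied by gene length, 100% of the values were whole multiples of one step per library, to a tolerance of 0.01 reads, so reads were recovered. Reads on genes ranged from 16099716 to 17302219 per library. PSCA, the siRNA target, had 4, 12 and 15 reads in NC and 9, 9 and 7 in siPSCA, so at this depth its reads did not separate the groups, and directions below follow the sample labels. The sort markers CD44 and EPCAM (CD326) were present at mean FPKM values of 82.6 and 107 in NC. Of 8 colorectal epithelial markers, 3 reached a mean FPKM of 1 over the 6 libraries (CDH1, EPCAM and CDX2), CDX1 and CEACAM5 had no read in any library, and VIL1, GPA33 and LGALS4 had group means of at most 0.0875. Of 15 markers of fibroblasts, leukocytes, endothelium and neuroendocrine cells, COL1A1 alone reached that minimum, LUM and CD3E had no read, and the summed FPKM of the list was 4.03 to 6.40 in NC and 6.77 to 7.14 in siPSCA. Its part in the keratin differences was not tested.

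The keratin message of these cells came almost wholly from KRT19, KRT8 and KRT18. Together they made up 94.5% to 94.8% of the FPKM of all keratin genes in NC and 93.1% to 93.4% in siPSCA. In NC the mean level was 311 ± 9.38 FPKM for KRT19, 178 ± 3.26 for KRT8 and 129 ± 12.9 for KRT18 (SD, n = 3 each). By mean NC level KRT19 ranked 64, KRT8 123 and KRT18 176 among all genes of the table. A wide gap followed. KRT23 lay at 11.8 ± 0.545 FPKM, KRT10 at 8.96 ± 0.854, KRT20 at 5.35 ± 0.329 and KRT15 at 3.12 ± 0.189 (SD, n = 3 each). The remaining members, KRT80, KRT7 and KRT81, had NC means of 0.362, 0.147 and 0.121 FPKM. In NC no neighbors in this order had overlapping library values except KRT7 (0.126 to 0.170) and KRT81 (0.0301 to 0.208). The 10 genes together took 0.249% to 0.258% of the reads on genes in NC and 0.287% to 0.300% in siPSCA.

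**Figure D1:**
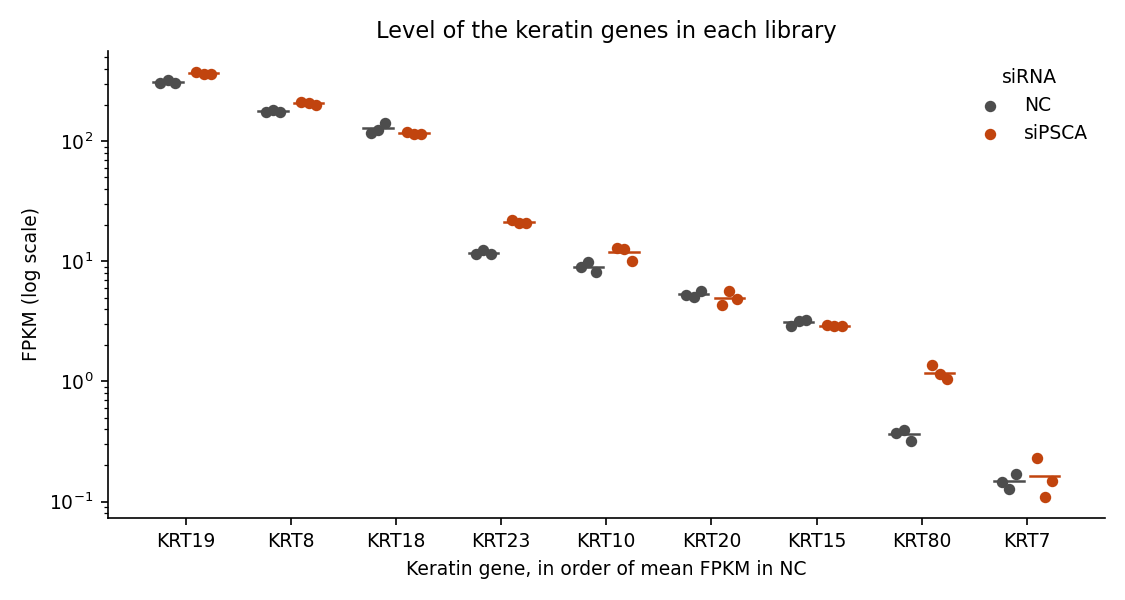
FPKM (vertical axis, log scale) of 9 keratin genes in each of the 3 NC (gray) and 3 siPSCA (orange) libraries, with points for libraries and lines for group means; KRT81 is left out because 2 siPSCA libraries had no read. The levels run from 311 FPKM for KRT19 in NC to 0.147 for KRT7, and the groups are set clearly apart for KRT23 and KRT80.

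The order at the top depended on the gene length. The table divides by the combined length of all exons of a gene, which was 6881 bases for KRT8, 3218 for KRT18 and 2336 for KRT19. GENCODE release 29, whose gene positions the table carries for 58735 of its genes, marks coding transcripts with a principal level (APPRIS). For each gene the longest coding transcript at the best level was taken as principal, and no other choice was run. This transcript is much shorter, with 2126 bases for KRT8 (KRT8-216), 1562 for KRT18 (KRT18-201) and 1390 for KRT19 (KRT19-201). Per kilobase of these transcripts, and if all reads of each gene came from them, the NC levels were 577 ± 10.6 for KRT8, 522 ± 15.8 for KRT19 and 266 ± 26.7 for KRT18 (SD, n = 3 each), with KRT8 first in place of KRT19. In siPSCA they were 672 ± 17.9, 622 ± 11.5 and 240 ± 5.08 (SD, n = 3 each). The other members kept their places from the 4th to the 10th on both scales, although KRT80 and KRT7 overlapped in NC per transcript length (0.408 ± 0.0433 and 0.344 ± 0.0514, SD, n = 3 each). The ratio of siPSCA to NC for one gene does not depend on this choice.

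To compare siPSCA with NC, limma's linear model was fitted to log2(FPKM + 1) over 13796 genes whose FPKM averaged 1 or more, and p-values were adjusted over all of them. Of the 10 keratin genes 7 met this minimum. KRT8, KRT10, KRT19 and KRT23 were called higher in siPSCA and 0 of the 7 were called lower, while KRT15, KRT18 and KRT20 did not pass. In the background, 50.7% of all tested genes were called, 26.6% higher and 24.2% lower. All siPSCA libraries lay above all NC libraries for the same 4 genes, a pattern held by 33.7% of all tested genes, and all lay below for 0 of the 7, against 30.8%. The median log2 fold change of the 7 genes was 0.22, beside 0.01 over all tested genes. For a single gene the exact permutation test of 3 libraries against 3 cannot fall below p = 0.1.

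KRT19, the most abundant type I keratin here, had 307, 321 and 304 FPKM in NC and 378, 367 and 365 in siPSCA. Every siPSCA library lay above every NC library. The fold was 1.19, or 0.25 ± 0.05 as a log2 difference (SE, adjusted p = 0.00589 by limma). KRT8, its type II partner, rose to a similar degree, from 176, 182 and 176 FPKM to 213, 208 and 202. Its groups did not overlap either, with a log2 difference of 0.22 ± 0.04 (SE, adjusted p = 0.00848 by limma). KRT18, the classical type I partner of KRT8, did not follow. It had 118, 125 and 143 FPKM in NC and 119, 116 and 114 in siPSCA. The groups overlapped, NC 3 was the highest library, and siPSCA 1 lay above NC 1. The log2 fold change of KRT18 was -0.14 with a 95% interval from -0.33 to 0.04 (adjusted p = 0.165 by limma), and it was -0.06 without NC 3.

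Ratios between partners were also taken within each library. No background share of such ratios over other gene pairs was computed. KRT8 over KRT18 was 1.49, 1.45 and 1.23 in NC against 1.79, 1.80 and 1.77 in siPSCA, with no overlap between groups and the lowest value in NC 3. The mean ratio went from 1.39 ± 0.140 to 1.78 ± 0.0176 (SD, n = 3 each), a factor of 1.28 (exact permutation test on the log2 ratio, 2-sided, p = 0.1, the smallest value possible). KRT19 over KRT18 moved likewise, from 2.60, 2.56 and 2.12 to 3.17, 3.17 and 3.20. KRT8 over KRT19, by contrast, was 0.575, 0.566 and 0.580 in NC and 0.563, 0.568 and 0.552 in siPSCA, and these ranges overlapped. Summed over the 10 genes, type II over type I FPKM was 0.372 to 0.390 in NC and 0.392 to 0.399 in siPSCA. The mean type I sum was 469 FPKM in NC and 528 in siPSCA, and the mean type II sum 179 and 209. With per-transcript lengths the type II over type I ratio was 0.701 ± 0.0203 in NC and 0.737 ± 0.00811 in siPSCA (SD, n = 3 each), nearer to parity than the 0.382 and 0.396 of the table's lengths.

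**Figure D2:**
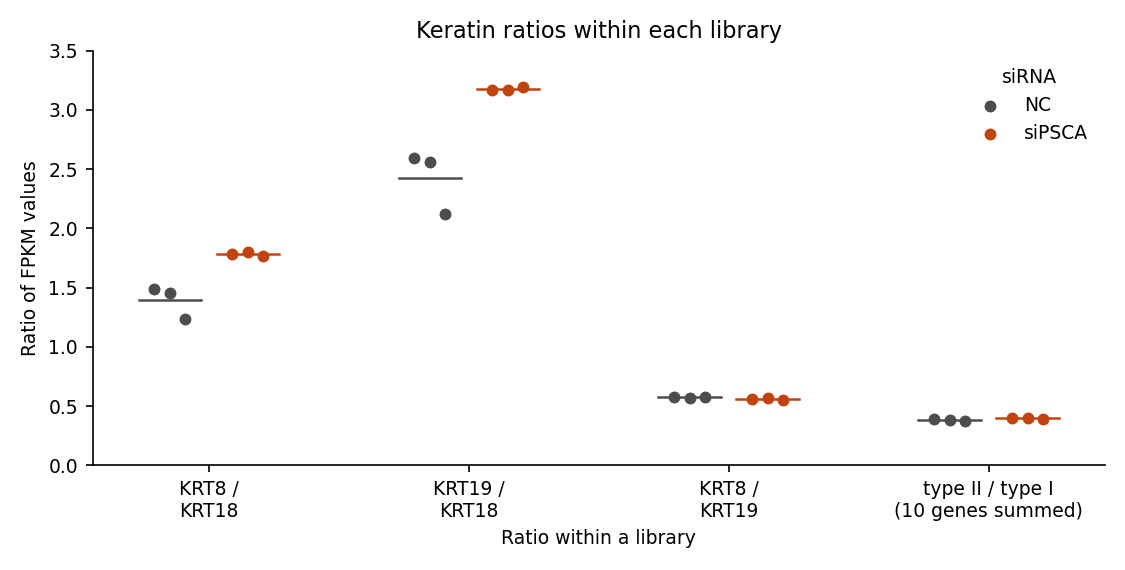
Ratios of FPKM values within each of the 3 NC (gray) and 3 siPSCA (orange) libraries, with lines for group means: KRT8 over KRT18, KRT19 over KRT18, KRT8 over KRT19, and type II over type I summed over the 10 genes. Both ratios to KRT18 are higher in every siPSCA library, whereas KRT8 over KRT19 overlaps between groups.

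KRT23, a type I keratin of modest level, had the largest difference among the 7. Its FPKM was 11.5, 12.4 and 11.5 in NC and 22.2, 21.0 and 20.9 in siPSCA, from 561 to 629 reads against 1081 to 1107. All siPSCA libraries lay far above the NC libraries, and the means differed by a factor of 1.81. On the log2 scale the difference was 0.80 ± 0.05 (SE, adjusted p = 0.000480 by limma). KRT10, the suprabasal epidermal keratin, had 8.99, 9.80 and 8.10 FPKM in NC and 12.9, 12.7 and 10.04 in siPSCA. The groups did not overlap, but siPSCA 3 lay close to NC 2. Its log2 difference was 0.37 ± 0.11 (SE, adjusted p = 0.0349 by limma), and it no longer passed when NC 1, NC 3, siPSCA 1 or siPSCA 2 was left out, with adjusted p-values from 0.0658 to 0.113 by limma.

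KRT20, the intestinal differentiation keratin, had 5.22, 5.10 and 5.72 FPKM in NC and 4.35, 5.67 and 4.85 in siPSCA. Its groups overlapped, with a log2 fold change of -0.10 and a 95% interval from -0.32 to 0.13 (adjusted p = 0.420 by limma). The interval leaves room for a modest change in either direction. KRT23 over KRT20 lay between 2.01 and 2.44 in NC and between 3.70 and 5.11 in siPSCA. KRT15, the basal keratin, had 2.91, 3.18 and 3.28 FPKM in NC and 2.94, 2.91 and 2.90 in siPSCA. NC 1 lay within the siPSCA range, and the log2 fold change was -0.07 with a 95% interval from -0.23 to 0.08 (adjusted p = 0.373 by limma).

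For KRT80, KRT7 and KRT81, whose mean FPKM was under the minimum, the model was fitted to all 34391 genes with a read, where 8.08% were called higher and 8.21% lower. Among the 20595 of these genes that were below the minimum, 0.966% were called higher. KRT80 had 0.369, 0.396 and 0.320 FPKM in NC and 1.36, 1.15 and 1.05 in siPSCA, from 27, 30 and 24 reads against 100, 89 and 83. Its groups stood well apart, and by the ratio of means it was 3.28 times higher in siPSCA, the largest relative rise among the 10 genes. From the summed reads, 81 against 272, the ratio was 3.27 with an exact binomial 95% interval of 2.54 to 4.24, which covers counting error only. On the log2(FPKM + 1) scale the difference was 0.68 ± 0.10 (SE, adjusted p = 0.0115 by limma), which understates the change of a gene this low, and it was 1.47 with a pseudocount of 0.1. After removal of the GC and length trend described below it was 0.36 (adjusted p = 0.0453 by limma), with a trend learned on genes of higher level. That fit called 11680 of 34371 genes, 6475 of them higher, so the call after removal adds no support.

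KRT7 had 10, 9 and 12 reads in NC and 16, 8 and 11 in siPSCA. The groups overlapped, and the ratio from summed reads was 1.10 with an exact binomial 95% interval of 0.658 to 1.84. KRT81, the hair keratin, had 4, 7 and 1 reads in NC and 1, 0 and 0 in siPSCA, a ratio of 0.0810 with an exact binomial 95% interval of 0.00190 to 0.548 that ignores the spread between libraries. NC 3 and siPSCA 1 had the same number of reads, and the adjusted p was 0.186 by limma. KRT81 has close copies in KRT86 and KRT83. KRT86 had 6 reads in all NC libraries together and 5 in all siPSCA libraries, and KRT83 had 0 and 1, so these reads are too few for a statement on any of these genes.

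Fold changes across the transcriptome followed base composition, and most keratin genes are rich in G and C. The Spearman correlation of log2 fold change with GC content was 0.67 across genes, which are not independent replicates. GC content, counted over all transcripts of a gene, was 60.4% for KRT19, 57.7% for KRT8, 57.3% for KRT18, 56.0% for KRT15, 51.3% for KRT10, 50.1% for KRT23 and 45.5% for KRT20, against a median of 48.8% over tested genes. When the dependence on GC content and gene length was taken out of each library, KRT23 stayed higher, at 0.72 ± 0.04 on the log2 scale (SE, adjusted p = 0.000207 by limma). KRT19 and KRT8 changed sign, to -0.22 (adjusted p = 0.109 by limma) and -0.07 (adjusted p = 0.427 by limma), and neither passed. KRT10 had 0.27 (adjusted p = 0.0759 by limma). KRT18 and KRT15 were then called lower, with log2 fold changes of -0.49 (adjusted p = 0.0227 by limma) and -0.28 (adjusted p = 0.0309 by limma), and KRT20 was at 0.01. With the replicate number as a block in the same fit, KRT10 was called (adjusted p = 0.0220 by limma) and KRT15 was not (adjusted p = 0.0523 by limma). Of all genes in the fit without the block, 21.6% were called higher and 18.3% lower. Whether the trend belongs to the libraries or to the cells cannot be told apart here. The difference between KRT8 and KRT18 was 0.36 on the log2 scale as deposited and 0.43 after the removal. Their GC contents are nearly equal, but their gene lengths are 6881 and 3218 bases, and the removal covers both traits. The part of the trend in this difference was not tested. Over all alternatives run the difference ranged from 0.28 to 0.43. For KRT19 against KRT18 the range was 0.28 to 0.44. In bulk RNA, fewer cells of a type and less RNA per cell cannot be told apart.

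**Figure D3:**
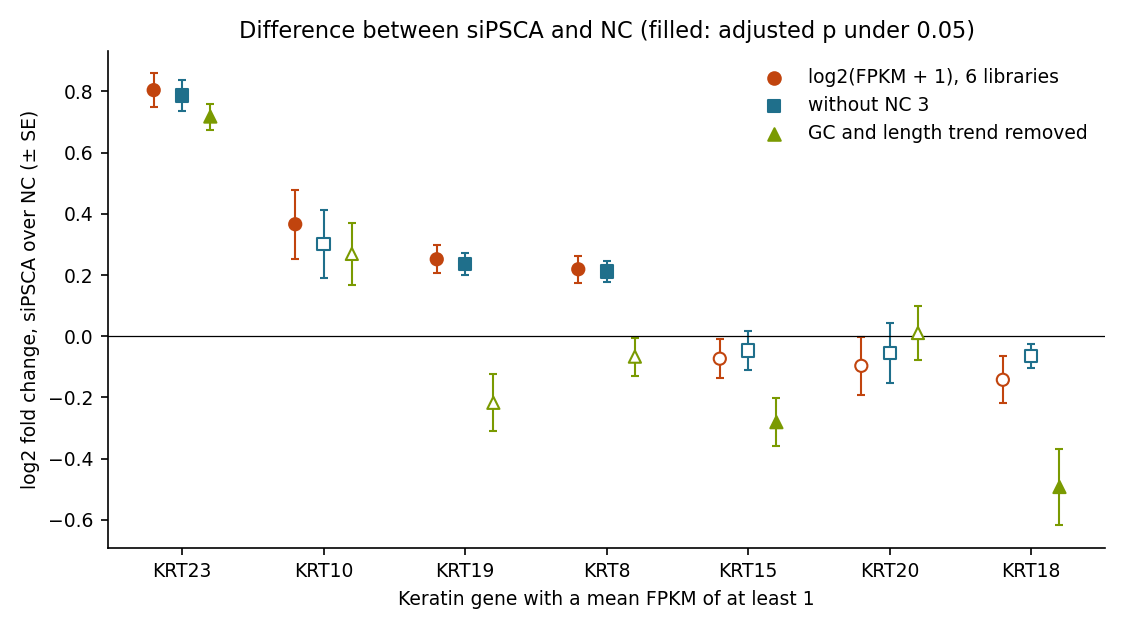
Log2 fold change of siPSCA over NC with its standard error for the 7 keratin genes that met the FPKM minimum, from all 6 libraries (circles), without NC 3 (squares) and after removal of the GC and length trend (triangles); filled symbols have an adjusted p under 0.05 by limma. KRT23 stays between 0.72 and 0.80 in all of them, whereas KRT8 and KRT19 cross 0 when the trend is removed.

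Some reads could belong to more than one gene. KRT8 and KRT18 lie head to head on chromosome 12 of GRCh38, KRT8 on the minus strand from 52897187 to 52949954 and KRT18 on the plus strand from 52948871 to 52952901. Their exons share 525 bases, which are 7.63% of the exonic bases of KRT8 and 16.3% of those of KRT18. Whether counting used strand is not given in the sources used here, so reads in this stretch cannot be assigned. Both genes also have many processed pseudogenes. The table lists 50 for KRT8, 25 of them with a read, and 67 for KRT18, 29 of them with a read. Their reads made up 0.575% to 0.679% of the sum of KRT8 and its pseudogenes and 0.643% to 0.810% for KRT18. Adding them left the log2 ratio of summed reads at 0.22 for KRT8 and at -0.15 for KRT18. How reads that match several places were counted is not given in the sources used here. These shares therefore cannot show how many reads of a gene came from its pseudogenes. For KRT19, with 5 pseudogenes, the share was at most 0.0134%. KRT10, on chromosome 17 from 40818117 to 40822595, shares 56 exonic bases (2.61%) with TMEM99 on the other strand. TMEM99 had a log2 fold change of 0.23 and was not called (adjusted p = 0.218 by limma).

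The remaining type I members lie on the minus strand of chromosome 17, with KRT20 from 40875941 to 40885227, KRT23 from 40922696 to 40937634, KRT15 from 41513743 to 41522529 and KRT19 from 41523617 to 41528308. KRT15 and KRT19 are direct neighbors. KRT80 (52168996 to 52192000, minus strand), KRT7 (52232520 to 52252186, plus strand) and KRT81 (52285913 to 52291534, minus strand) belong to the chromosome 12 cluster.

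The RefSeq promoter table held 3 of the 10 genes, KRT8 and KRT10, both called higher, and KRT20, which was not called. After removal of the GC and length trend without the replicate block, neither KRT8 nor KRT10 was called, so the contrast belongs to the values as deposited. The 250 bases before each RefSeq start on GRCh38.p14 are shown for this contrast, 5′ to 3′ on the strand of the gene, with matches to the searched motifs in capitals. They lie at chr12:52926470-52926719 for KRT8, a start inside the GENCODE gene, at chr17:40822615-40822864 for KRT10 and at chr17:40885243-40885492 for KRT20, all on the minus strand.
KRT8: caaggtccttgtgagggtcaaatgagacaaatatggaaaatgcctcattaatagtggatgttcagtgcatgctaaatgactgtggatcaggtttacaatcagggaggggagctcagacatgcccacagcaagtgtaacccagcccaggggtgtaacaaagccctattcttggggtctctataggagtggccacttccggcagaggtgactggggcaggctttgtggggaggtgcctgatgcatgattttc
KRT10: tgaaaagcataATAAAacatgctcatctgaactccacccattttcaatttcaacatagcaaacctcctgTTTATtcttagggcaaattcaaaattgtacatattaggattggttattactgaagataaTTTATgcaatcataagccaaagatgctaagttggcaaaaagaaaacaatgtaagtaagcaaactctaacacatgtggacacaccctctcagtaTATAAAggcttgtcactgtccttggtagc
KRT20: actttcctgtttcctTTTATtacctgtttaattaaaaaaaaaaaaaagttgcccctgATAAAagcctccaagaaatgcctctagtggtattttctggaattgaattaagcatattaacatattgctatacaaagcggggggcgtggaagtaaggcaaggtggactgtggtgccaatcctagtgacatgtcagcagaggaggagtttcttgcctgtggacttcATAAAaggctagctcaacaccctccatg
The motifs, searched on both strands, were TATAAA (core of the TATA box, in 10.7% of 35116 promoters of this length), TGANTCA (AP-1 element, 6.57%), GGGCGG (Sp1 box, 42.6%), TTTAT (CDX core, 32.7%) and ACGTG (hypoxia response core, 18.5%). The CDX core read on the other strand can overlap the TATA box core. KRT10 holds the TATA box core from 29 to 24 bases before its start, overlapping 1 of its 4 CDX core matches, and KRT20 holds 3 CDX core matches, 1 of them from 28 to 24 bases before the start. No searched motif was found in the KRT8 window. This window does not lie before KRT8-216, the transcript used above for KRT8 levels, which starts at 52949842. The GC content of the windows was 50.4% for KRT8, 34.8% for KRT10 and 41.2% for KRT20. A match describes letters only.

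The other 45 keratin genes were nearly silent. A read was found for 28 of them, and KRT32, a hair keratin of type I, was the only one tested. KRT32 had a mean FPKM of 0.721 ± 0.143 in NC and 1.60 ± 0.197 in siPSCA (SD, n = 3 each). That is 0.59 on the log2(FPKM + 1) scale (adjusted p = 0.00751 by limma), against 0.22 and no call after removal of the GC trend. KRT32 met the FPKM minimum only through its siPSCA libraries, so its being tested and called is no independent support for a rise. Among the 27 others with a read, whose mean FPKM was at most 0.766, every siPSCA library lay above every NC library for KRT5, KRT9, KRT17, KRT35, KRT38 and KRT39, and below for KRT222. Over all 20595 genes with a read below the minimum, 5.04% lay above in this way and 9.79% below. In the model over all genes with a read, KRT5 and KRT9 were called higher, against 0.966% of all genes below the minimum, and 0 of the 27 were called lower. GC content was 48.9% for KRT39, 53.0% to 60.7% for the other genes that lay above, and 36.8% for KRT222. The part of the GC trend in these counts was not tested. KRT5, the basal type II keratin, had 12, 9 and 7 reads in NC and 30, 39 and 35 in siPSCA. KRT9, the keratin of palms and soles, had 2, 0 and 1 reads against 7, 5 and 8. KRT17, a keratin of wounded and basal epithelium, had 12, 8 and 5 against 21, 37 and 18, with an adjusted p of 0.102 by limma.

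Genes around the keratin filament were compared by the same model, in which 26.6% of all tested genes were called higher and 24.2% lower, or 21.6% and 18.3% after removal of the GC trend. The counts of the lists are to be read against these shares. Of 15 non-keratin intermediate filament genes 8 were tested, 3 were called higher and 2 lower, with a median log2 fold change of 0.08. LMNB2, LMNA and LMNB1, which encode the nuclear lamins, rose by 0.66, 0.62 and 0.22 on the log2 scale. VIM, the filament protein of mesenchymal cells, and NES, that of progenitor cells, fell by 0.64 and 0.39. VIM went from an FPKM of 3.62 ± 0.263 to 1.97 ± 0.247 (SD, n = 3 each), so its level was a small part of that of KRT8 in both groups. After removal of the GC trend 0 genes of this list were called higher and VIM and NES had log2 fold changes of -0.76 and -0.77, both called.
Desmosomes and plakins anchor keratin filaments to membranes. Of 20 such genes 15 were tested, 4 called higher and 5 lower, with a median of -0.11. PKP3, PLEC and JUP had the largest rises (1.04, 0.74 and 0.62 on the log2 scale), and DST, PPL and PKP2 the largest falls (-1.10, -0.53 and -0.38). After removal of the GC trend 3 were called higher and 5 lower, but these were not the genes called higher before. MACF1, DSC3 and PERP were then called higher (0.18, 0.40 and 0.42). EVPL, a cornified envelope plakin, went from a call higher at 0.27 to a call lower at -0.35. PKP3, PLEC and JUP were at 0.14, 0.12 and 0.11 and not called, while DST, PPL and PKP2 were called at -0.59, -0.89 and -0.25.
Of 15 genes listed as partners and modifiers of keratin filaments 14 were tested, with 5 called higher and 5 lower and a median of -0.06. A direct link to keratin was not checked for each listed gene, among them KRTCAP2 and MLF1. FAM83H, which recruits casein kinase to keratins, rose most, by 1.47, and by 0.71 after removal of the GC trend. NC 3 was its lowest library, and its mean FPKM was 23.5 ± 7.43 in NC and 64.6 ± 0.528 in siPSCA (SD, n = 3 each). TRADD, which binds KRT18, and SFN, the epithelial 14-3-3 protein, rose by 0.87 and 0.81. AHNAK, MLF1 and YWHAZ had the largest falls (-1.17, -0.40 and -0.30). After the removal AHNAK and SFN were called at -1.11 and 0.29, whereas TRADD, MLF1 and YWHAZ were not called.

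Among 24 epithelial transcription factors 17 were tested, 7 called higher and 4 lower, with a median log2 fold change of 0.07. ESRP2, a splicing regulator listed with them, CDX2, the intestinal homeobox factor, and GATA6 had the largest rises (0.72, 0.70 and 0.68), and ELF3, SP1 and KLF5 the largest falls (-0.60, -0.45 and -0.42). After removal of the GC trend 3 were called higher and 4 lower, with GATA6 no longer called. Of 26 cornified envelope and squamous genes, 25 of them in the table, 8 were tested, 3 called higher (SFN, KLK6 and KLK10) and 1 lower (CSTA), with a median of 0.08. Of these 4 genes SFN alone was also called after the removal, where the list had 1 call higher and 3 lower. Of 24 intestinal differentiation genes 2 were tested, CA2 and EPCAM, and 0 were called by limma (unadjusted p under 0.05 for 1 of them). In the fit over all genes with a read, where 8.21% were called lower, CDH17, the intestinal cadherin, was called lower (10, 14 and 21 reads in NC and 2, 0 and 5 in siPSCA, adjusted p = 0.0467 by limma). The transcription factors OVOL2, FOXA1 and FOXA2 were called higher there, against 0.966% of all genes below the minimum. Their summed reads were 5, 94 and 17 in NC and 28, 205 and 92 in siPSCA, and NC 2 had 0 reads for OVOL2. Of 20 mesenchymal genes 8 were tested, S100A4 and SNAI1 called higher and VIM and FN1 lower, with a median of 0.15. After the removal S100A4 alone was called higher, SNAI1 was at 0.08 and not called, and VIM, FN1 and TAGLN were called lower. Among the listed markers CDX2 was called higher and CDH1 (E-cadherin) and CD44 were called lower, with log2 fold changes of -0.60 and -0.44. EPCAM was not called at -0.16. Of the 15 markers of other cell types COL1A1 alone was tested, and it was not called (adjusted p = 0.111 by limma). The others had few or no reads. In the fit over all genes with a read, COL3A1 alone of these others had an unadjusted p under 0.05 by limma, and it was not called. ZEB1 and CDH2 lay below the minimum, with 405 and 3 reads in NC and 301 and 0 in siPSCA.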

How the data were processed

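RNA of 3 NC and 3 siPSCA libraries was sequenced as read pairs after NEBNext Ultra preparation. Gene-level FPKM on GRCh38 were deposited in 1 table (58735 genes) with gene lengths in bases; aligner, counting program and strand setting are not given in the sources used here. Groups follow the treatment labels; 2 siPSCA titles carry another number after HCT, while the cell line label names HCT116. Per the file headers each library has its own column, and the title or description of each sample names it.

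Members and gene lists were chosen with earlier results of these data known. All members were named, with up to 3 genes per list and direction that passed the threshold with the largest log2 fold change, the genes CD44, EPCAM, CDH1, VIM, CDH2 and ZEB1, PSCA, and genes that overlap or closely resemble a member. CA2, CDH17, COL1A1, COL3A1, DSC3, EVPL, FOXA1, FOXA2, MACF1, OVOL2, PERP, TAGLN, KRT5, KRT9, KRT17 and the other low keratins were named after their values were seen. Fits used R 4.3.3 and limma 3.58.1 (lmFit, eBayes with trend) on log2(FPKM + 1) at a mean FPKM of at least 1, with Benjamini-Hochberg adjustment over all tested genes at 0.05; members below the minimum came from the fit over every gene with a read. GC and length trends were removed per library with natural splines of 5 degrees of freedom, for the 13792 tested genes with a GC value (99.97%). Limma-voom with TMM factors on recovered reads was an alternative, because FPKM are not counts. Scripts were tested on simulated data. Tables used Python 3.11.15, pandas 2.3.3 and scipy 1.17.1, figures matplotlib 3.10.9. Intervals cover counting error only where stated.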

Additional observations from a re-analysis of the deposited data

How the results depend on the processing

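The alternatives were a pseudocount of 0.1, no FPKM minimum, a minimum of 5, TPM, a common median, limma-voom, removal of the GC and length trend, the replicate block with and without that removal, and each library left out; for members below the minimum the pseudocount of 0.1, the GC removal and limma-voom at 10 reads, and for the lists the GC removal, were chosen after seeing the data. KRT23 kept its direction and call in every alternative. KRT80 did so with the pseudocount of 0.1, with limma-voom at 10 reads and without each library. After GC removal KRT80 was also called, at 0.36, but that fit called 11680 of 34371 genes. TPM, common median, the minimum of 5 and the block were not run for KRT80, KRT7 and KRT81. The number of genes called was 4581 with the replicate block and the trend removed, 4610 without siPSCA 1, and 4610 to 7410 over the fits that left out one library. Members called higher numbered 1 with the trend removed and 2 with the replicate block added, and 3 to 4 without single libraries. Members called lower numbered 2 and 1 with the trend removed, without and with the block, and 0 without any single library.
With the trend removed, with and without the block, log2 fold changes were -0.067 for KRT8, -0.22 for KRT19, 0.011 for KRT20 and -0.49 for KRT18. KRT15 was called at -0.28 and KRT10 was not at 0.27 without the block, and the reverse held with it. KRT10 had 0.37 without an FPKM minimum and was not called. For KRT7 and KRT81 the same removal gave -0.39 and -0.70, by construction, as for KRT80, with a trend learned on higher genes. Both were called lower there (adjusted p = 0.0348 and 0.00488 by limma), where 5205 of 34371 genes were called lower, and KRT7 changed sign from 0.018. KRT81 also passed without NC 3 (-0.21), the NC library that had 1 read, as siPSCA 1 did. That fit called 3086 of 33696 genes lower, and the reads of KRT81 remain too few for a statement. Over fits that left out one library, log2 fold changes ranged from 0.20 to 0.24 for KRT8, 0.24 to 0.28 for KRT19, 0.30 to 0.47 for KRT10, 0.78 to 0.84 for KRT23, 0.62 to 0.73 for KRT80, -0.20 to -0.06 for KRT18, -0.11 to -0.05 for KRT15, -0.18 to -0.02 for KRT20, -0.024 to 0.05 for KRT7 (lowest without siPSCA 1) and -0.21 to -0.09 for KRT81. The cause of these shifts was not tested. Correlations of the deviations of same-numbered libraries were 0.0955, 0.0132 and 0.134, against -0.131 to 0.0417 for libraries of different numbers. NC 2 and siPSCA 2 did not correlate best with their own number, so whether libraries pair was not settled. The replicate block alone gave 6725 calls and changed no call of the 7 members above the minimum.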
